A study of Mus musculus with 24 samples.

Results

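The imprinted Dlk1-Dio3 domain is a stretch of mouse chromosome 12 whose genes are read only or mainly from the maternal or from the paternal chromosome. Its 6 long genes, Dlk1, Rtl1, Meg3, Rian, Mirg and Dio3, were taken by symbol from a table of 24594 genes, and all 6 passed the filter on low counts. They were chosen by their names with log2 fold changes of these same lines in view, so their levels, their changes and the counts of those past the thresholds used for all genes are a description, from which nothing is inferred.

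Imprinted genes keep a mark from the parent they came from, usually DNA methylation laid down in the germ line. In this domain the paternal chromosome is methylated at an intergenic control region upstream of Meg3 and expresses the protein-coding genes Dlk1, Rtl1 and Dio3. The maternal chromosome is unmethylated there and expresses the noncoding RNAs Meg3, Rian and Mirg, which run in the same direction and host a large cluster of small nucleolar RNAs (snoRNAs) and microRNAs (miRNAs). In mouse embryonic stem cells (mESCs) and induced pluripotent cells the activity of Meg3 and its neighbors is known to vary between clones, and its silencing is associated with poor developmental capacity.

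The libraries came from mESCs of the 129S6/SvEvTac background, unedited (WT) or carrying a CRISPR–Cas9 deletion of 1 accessory subunit of the ISWI chromatin remodelers. These were Rsf1Δ, WstfΔ (gene Baz1b), Tip5Δ (Baz2a), BptfΔ, Cecr2Δ and Acf1Δ (Baz1a), grown in serum with leukemia inhibitory factor and given no other treatment. Batch letters in the labels put 2 WT libraries beside Rsf1Δ and WstfΔ in batch A, beside Tip5Δ in B, beside BptfΔ in C and beside Acf1Δ in E. Batch D had 3 WT libraries beside Cecr2Δ, which had 3, and every other line had 2. Each line was 1 picked clone, so the deletion and the clone cannot be told apart, and p-values given for other genes measure the spread between replicate libraries of a clone. The strain is inbred, so the counts do not show which parental allele was read.

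Depth ran from 13417755 to 36721585 counts per library (median 25020730), which puts 3 counts at 0.0837 to 0.220 CPM, the count scaled to library size. The mRNA of the targeted gene was lower in Rsf1Δ, WstfΔ, BptfΔ and Acf1Δ by 1.72 to 2.40 on the log2 scale. Baz2a mRNA differed by -0.26 ± 0.09 (SE) in Tip5Δ (edgeR quasi-likelihood test, adjusted p = 0.0533). Cecr2 mRNA was higher by 0.37 ± 0.07 in the libraries labelled Cecr2Δ (adjusted p = 0.000154), so the RNA does not check these labels, although an edited allele can still be transcribed. The 4 libraries of batch C stood apart. Summed RNAs that lack a poly(A) tail, such as Rpph1 and Rmrp, were at 4011 to 5577 normalized CPM there and at 0.258 to 5.96 in the other 20 libraries. Pluripotency markers (Pou5f1, Sox2, Nanog, Klf4, Esrrb and Zfp42) were present in every library, with a summed level of 2527 to 4117 normalized CPM. The 6 fibroblast markers summed to 2.54 to 32.2 normalized CPM, with Thy1 at up to 16.04 and Col1a1 at up to 16.7, while Postn and Dcn did not exceed 0.422 and 0.149 in any library.

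In genome build GRCm38 (mm10) the domain begins with Dlk1 at chr12:109452485-109463336, which encodes a membrane protein of the Delta-like family. Meg3 follows at chr12:109540996-109571729 and overlaps the annotated span of Rtl1 (chr12:109564900-109604418), a gene derived from a retrotransposon gag region and needed in the placenta. Rian (chr12:109603945-109661716) hosts snoRNAs, and Mirg (chr12:109734981-109749458) hosts miRNAs. Dio3 lies far downstream, at chr12:110279230-110281097, and encodes the deiodinase that inactivates thyroid hormone. Between the start of Dlk1 and the end of Dio3 the table holds 68 further genes, of which 61 are miRNA genes, 5 snoRNA genes and 2 long noncoding RNA genes. RefSeq's miRNA table (GRCm38.p6) gave a mature sequence for each of the 61, 113 mature sequences in all.

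The miRNAs are shown because they are what this transcript cluster produces, and because 28 of the mature sequences lie within the Rtl1 span. A transcript running against Rtl1 carries miRNAs that pair perfectly with its mRNA. The span is wider than the exonic width of 6358 bases and holds miRNAs of both strands. Which of the 28 lie against the mRNA was not checked. The 5 printed here run 5′ to 3′ with the seed, bases 2 to 8, in capitals, and lie on the plus strand between chr12:109590459 and chr12:109595352.
miR-431-5p: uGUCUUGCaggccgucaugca
miR-433-3p: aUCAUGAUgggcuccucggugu
miR-127-3p: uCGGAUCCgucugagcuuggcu
miR-434-3p: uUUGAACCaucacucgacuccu
miR-136-5p: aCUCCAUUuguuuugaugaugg

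No 2 of these 5 share a seed. Over the whole domain the 113 mature sequences had 104 distinct seeds, and 9 seeds were each shared by 2 sequences. Examples of the shared seeds come from the cluster between Rian and Mirg and from Mirg itself. The pairs are miR-379-5p with miR-1193-5p, miR-379-3p with miR-411-3p, miR-376c-5p with miR-376b-5p, and miR-494-5p with miR-410-5p.
miR-379-5p: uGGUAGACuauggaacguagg
miR-1193-5p: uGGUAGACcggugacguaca
miR-379-3p: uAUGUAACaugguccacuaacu
miR-411-3p: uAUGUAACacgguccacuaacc
miR-376c-5p: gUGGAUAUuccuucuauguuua
miR-376b-5p: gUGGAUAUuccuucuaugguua
miR-494-5p: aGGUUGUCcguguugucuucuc
miR-410-5p: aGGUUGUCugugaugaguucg
Mature miRNAs are too short for these libraries, so none of these sequences has a level here, and only longer RNA over their precursors was counted.

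The Meg3 promoter is shown because Meg3, Rian and Mirg are thought to be read largely as 1 unit from it. RefSeq gives 2 windows of 250 bases before a Meg3 start and 50 after it (GRCm38.p6, plus strand). The one printed is at the upstream start, chr12:109540746-109541045. Capitals mark TGCCGC on the reverse strand, which is the hexamer that the imprint-protecting factor ZFP57 binds when methylated, then the cAMP response element TGACGTCA, and last TATAAA, which matched on both strands with an overlap.
Meg3 promoter: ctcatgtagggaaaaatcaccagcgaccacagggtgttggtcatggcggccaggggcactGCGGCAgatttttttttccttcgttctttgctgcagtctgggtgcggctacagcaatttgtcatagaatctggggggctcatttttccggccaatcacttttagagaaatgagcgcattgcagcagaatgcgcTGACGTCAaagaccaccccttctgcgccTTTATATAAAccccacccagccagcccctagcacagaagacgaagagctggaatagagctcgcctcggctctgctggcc

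Both strands were searched in 32544 distinct RefSeq promoter windows of the same length. TGCCGC was present in 11.7% of them, TGACGTCA in 1.80% and TATAAA in 13.6%. The cAMP response element began 57 bases before the Meg3 start. The reverse-strand match of TATAAA began 29 bases before the start, and the plus-strand match 25 bases before it. The printed Meg3 window held 13 CG pairs, against a median of 7 over all windows, while Dlk1 had 9, Mirg 10, Dio3 25 and Rian 0. The other Meg3 window, chr12:109545148-109545447, held 1 CG pair and none of the 3 motifs. The windows of Dlk1, Rian, Mirg and Dio3 held neither TGCCGC nor TGACGTCA, and that of Dio3 alone among these 4 held TATAAA. Rtl1 had no entry. The last 2 motifs were chosen after the sequence had been seen.

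In WT cells outside batch C the noncoding RNAs were the most abundant members. Levels here are CPM normalized with TMM factors and divided by the gene's exonic width in kilobases, over the 9 WT libraries outside batch C. Rian was highest at 8.04 ± 1.44 (SD) and Meg3 next at 6.96 ± 1.47, and these neighbors in the order did not differ beyond their spread. Mirg followed at 2.97 ± 0.47. Dlk1 was at 1.33 ± 0.22 and Dio3 at 1.27 ± 0.35, again within their spread, and Rtl1 was lowest at 0.529 ± 0.148. With the 2 WT libraries of batch C included (n = 11), Rtl1 became 1.49 ± 2.15 and moved above Dlk1 and Dio3, because those 2 libraries had a far higher Rtl1 level than the others. Within batch C, WT had Rtl1 at 5.83 ± 0.012, above Meg3 at 3.87 ± 0.16.

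**Figure D1:**
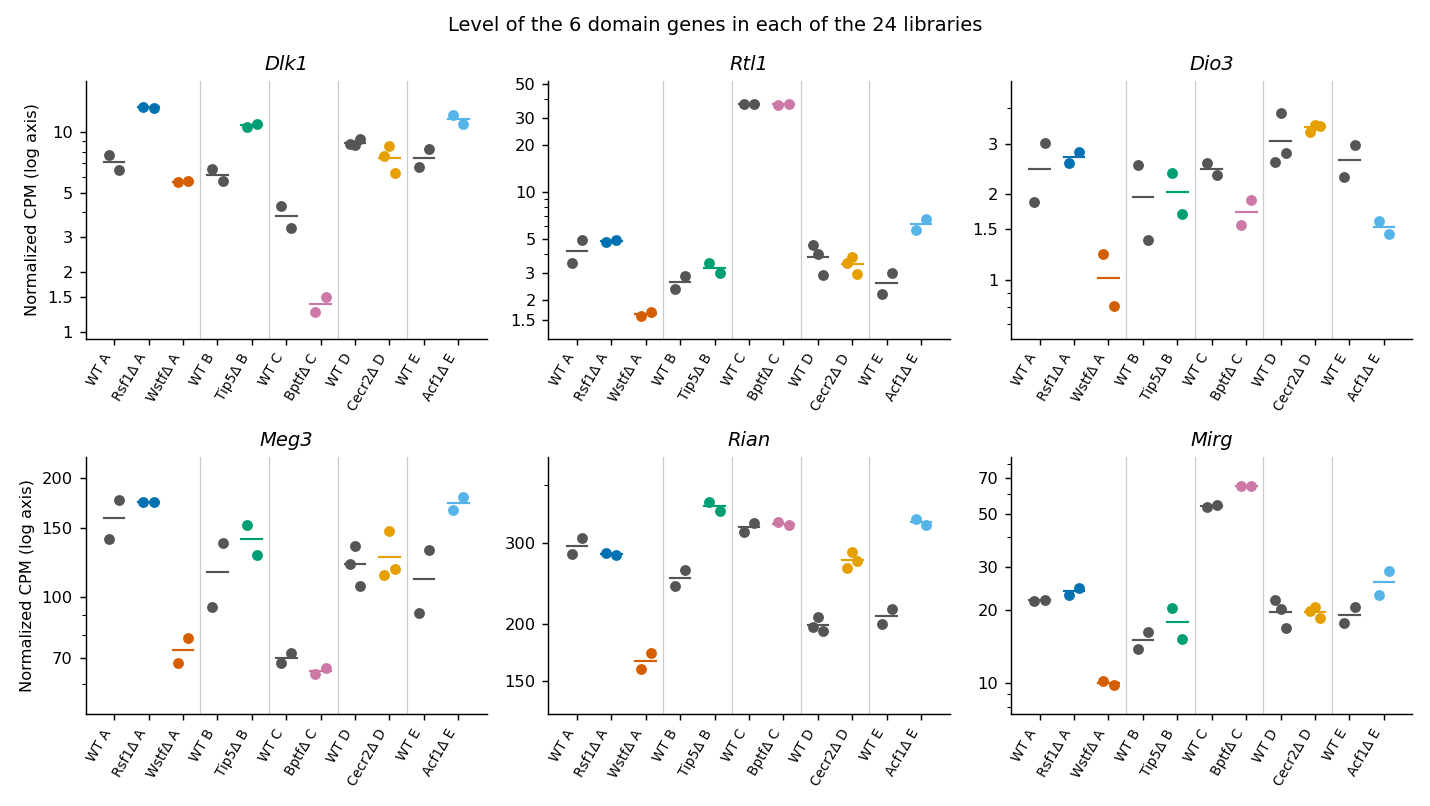
Normalized CPM (log axis) of each domain gene in each of the 24 libraries, by genotype and batch letter, with a bar at each group's mean. The WstfΔ points lie below their WT points in every panel, Rtl1 and Mirg are high in all 4 libraries of batch C, and Dlk1 is lowest in BptfΔ.

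Dlk1, the paternally expressed Delta-like gene, was above WT of its batch in 3 lines and below it in the others. In batch A it was at 7.70 and 6.503 normalized CPM in WT, 13.4 and 13.3 in Rsf1Δ, and 5.64 and 5.71 in WstfΔ. The Rsf1Δ libraries lay above both WT libraries and the WstfΔ libraries below both. The fitted log2 fold change was 0.90 ± 0.14 (SE) in Rsf1Δ and -0.33 ± 0.17 in WstfΔ. In batch B Dlk1 was at 6.55 and 5.72 in WT and 10.6 and 11.02 in Tip5Δ, a log2 fold change of 0.82 ± 0.14. In batch E it was at 6.67 and 8.22 in WT and 12.2 and 11.04 in Acf1Δ, a log2 fold change of 0.64 ± 0.13. All 6 libraries of Rsf1Δ, Tip5Δ and Acf1Δ lay above all 11 WT libraries, whose highest level was 9.23. In batch C, WT was at 4.30 and 3.33 and BptfΔ at 1.26 and 1.502, a log2 fold change of -1.47 ± 0.24. The BptfΔ values rest on 21 and 26 counts and are the lowest of the 24 libraries. In batch D, WT was at 8.71, 8.65 and 9.23 and the libraries labelled Cecr2Δ at 7.64, 8.52 and 6.25, all below the lowest WT library, with a log2 fold change of -0.25 ± 0.11.

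Rtl1, the gag-derived gene, stood out in WstfΔ, in Acf1Δ and in batch C. It was at 3.47 and 4.91 normalized CPM in WT of batch A, 4.72 and 4.93 in Rsf1Δ, and 1.59 and 1.68 in WstfΔ. The WstfΔ log2 fold change was -1.35 ± 0.26, and the Rsf1Δ libraries overlapped WT. In batch E it was at 2.21 and 2.999 in WT and 5.67 and 6.70 in Acf1Δ, a log2 fold change of 1.25 ± 0.19. Tip5Δ (3.50 and 2.995 against 2.38 and 2.88) had a log2 fold change of 0.30 ± 0.22. The libraries labelled Cecr2Δ (3.48, 3.82 and 2.96 against 4.55, 3.97 and 2.91) overlapped WT, at -0.17 ± 0.15. In batch C all 4 libraries lay between 36.8 (BptfΔ) and 37.1 (WT), so the line and its WT coincided while both were several times the level of any other library. How strand entered the counting is not given in the sources used here, so reads of Rtl1 and of the transcript running against it cannot be told apart.

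Dio3, the deiodinase, had the fewest reads of the 6 genes and the widest errors. Batch A had 1.87 and 3.01 normalized CPM in WT, 2.58 and 2.81 in Rsf1Δ, and 1.23 and 0.805 in WstfΔ. The WstfΔ values, from 17 and 11 counts, lay below both WT values, with a log2 fold change of -1.25 ± 0.36. Acf1Δ was also below its WT, at 1.60 and 1.45 against 2.28 and 2.96, a log2 fold change of -0.78 ± 0.27. BptfΔ was at 1.56 and 1.91 against 2.57 and 2.33 in WT, a log2 fold change of -0.50 ± 0.31. Tip5Δ (2.36 and 1.71 against 2.53 and 1.38) and the libraries labelled Cecr2Δ (3.31, 3.50 and 3.46 against 2.59, 3.84 and 2.78) overlapped their WT libraries. Dio3 and Dlk1 sit at opposite ends of the domain and moved apart in Acf1Δ, where Dio3 had 13.1% ± 0.0076 (SD, n = 2) as many reads as Dlk1 against 35.1% ± 1.3 in WT. These 2 Acf1Δ values rest on 43 and 41 Dio3 counts. In BptfΔ the proportion was 125% ± 2.2 against 65.0% ± 7.4 in its WT, with both genes lower. The proportion also lay below both WT libraries in Rsf1Δ (20.2% ± 1.3), WstfΔ (17.9% ± 5.4, WT 35.4% ± 15.6) and Tip5Δ (18.8% ± 4.8 against 31.4% ± 10.2). With the Cecr2Δ label it overlapped WT (46.6% ± 7.7 against 34.7% ± 8.3).

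Meg3, a maternally expressed noncoding RNA, was lower in WstfΔ and higher in Acf1Δ. It was at 140 and 177 normalized CPM in WT of batch A, 175 and 175 in Rsf1Δ, and 67.9 and 78.7 in WstfΔ. The WstfΔ libraries had about the level of batch C and lay far below both WT libraries of their own batch, with a log2 fold change of -1.11 ± 0.16. In batch E it was at 90.9 and 132 in WT and 167 and 180 in Acf1Δ, a log2 fold change of 0.64 ± 0.15. The 2 WT libraries of batch B differed as much from each other (94.1 and 137) as from Tip5Δ (152 and 128). Batch D overlapped, with 121, 135 and 107 in WT and 114, 147 and 118 in the libraries labelled Cecr2Δ. Batch C was at 68.0 and 72.1 in WT and 63.6 and 66.1 in BptfΔ, a log2 fold change of -0.11 ± 0.17.

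Rian, the snoRNA host, had the most reads and the smallest errors. It was at 283 and 307 normalized CPM in WT of batch A, 285 and 282 in Rsf1Δ, and 159 and 173 in WstfΔ. WstfΔ was the only line whose libraries all lay below those of its WT, with a log2 fold change of -0.83 ± 0.06. Rian was higher in Tip5Δ (368 and 352 against 241 and 261), in the 3 libraries labelled Cecr2Δ (264, 286 and 274 against 197, 206 and 193) and in Acf1Δ (338 and 328 against 199.9 and 215). Those log2 fold changes were 0.52 ± 0.06, 0.47 ± 0.05 and 0.68 ± 0.06, and in each the line's libraries lay above all of its WT libraries. BptfΔ (332 and 327) overlapped WT of its batch (316 and 331), at 0.03 ± 0.06. WT itself ranged 1.72-fold between libraries, from 193 in batch D to 331 in batch C, and 1.59-fold outside batch C. The factor over its own WT was 1.43 in Tip5Δ, 1.38 with the Cecr2Δ label and 1.60 in Acf1Δ. The means of Tip5Δ (360) and Acf1Δ (333) lay above all 11 WT libraries, and that of the Cecr2Δ label (274) lay within their range.

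Mirg, the miRNA host, followed Meg3 and Rian in WstfΔ. It was at 21.9 and 22.0 normalized CPM in WT of batch A, 23.0 and 24.8 in Rsf1Δ, and 10.2 and 9.80 in WstfΔ. The log2 fold change in WstfΔ was -1.14 ± 0.15, and these were the 2 lowest values of the 24 libraries. In batch E it was at 17.7 and 20.5 in WT and 23.0 and 29.1 in Acf1Δ, a log2 fold change of 0.45 ± 0.12. Tip5Δ (20.4 and 15.3 against 13.8 and 16.3) and the libraries labelled Cecr2Δ (19.8, 20.6 and 18.5 against 21.9, 20.3 and 16.8) overlapped WT. BptfΔ (64.7 and 65.1) lay above its WT (53.1 and 54.2), with a log2 fold change of 0.27 ± 0.11, and both were above every other library.

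**Figure D2:**
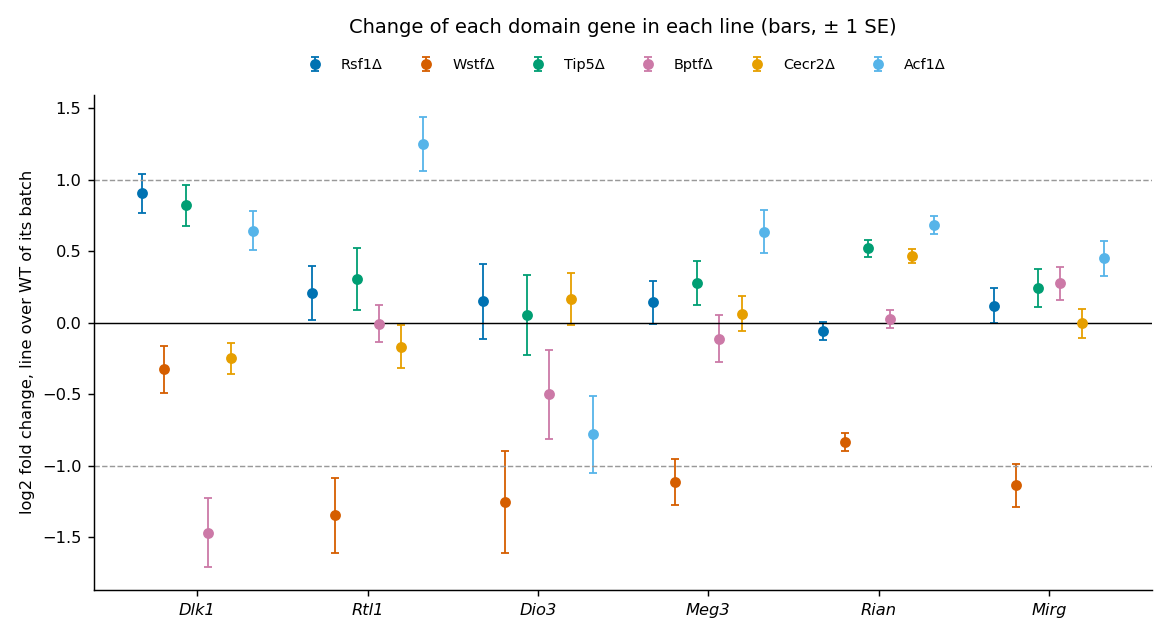
Fitted log2 fold change of each domain gene in each line over WT of its batch, with bars of ± 1 SE and dashed lines at a log2 fold change of 1 in either direction. WstfΔ is below 0 for all 6 genes, from -0.33 for Dlk1 to -1.35 for Rtl1, and Acf1Δ is above 0 for all but Dio3.

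Calls in each line are counted at an absolute log2 fold change above 1 with an adjusted p under 0.01, and each count is set beside the share of all 15682 tested genes that met the same rule. Of the 36 pairs of gene and line, 6 were past both thresholds, 1 higher and 5 lower, where 6.75% of all pairs of tested gene and line were.

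In WstfΔ, 4 of the 6 genes (Rtl1, Meg3, Mirg and Dio3) were past both thresholds, all lower, against 6.57% of all genes called lower. The libraries of all 6 lay below WT, where 40.8% of all genes did. The median log2 fold change of the 6 was -1.12 and that of all genes -0.03. Rian and Dlk1 were lower by less than the fold threshold. The 2 WT libraries of batch A differed from each other, and without the second of them (Meg3 at 177, Dio3 at 3.01) Meg3 and Dio3 were no longer past the threshold, at -0.94 and -0.88. Without the first or the second WstfΔ library Dio3 was not called either, at -1.59 and -0.98. Rtl1 and Mirg kept their calls without any 1 of these libraries. Markers of other states moved in the same libraries. The summed level of the 6 primitive endoderm markers was 325 ± 4.9 normalized CPM in WT and 134 ± 4.2 in WstfΔ (n = 2 each), with 4 of 6 called lower. That of the 3 primed epiblast markers was 59.7 ± 3.2 and 20.04 ± 1.4, with 3 of 3 called lower. The summed fibroblast markers were at 18.8 ± 0.46 and 18.5 ± 1.8, with 1 of 4 tested called higher and 3 lower. The 3 mesoderm markers summed to 5.14 ± 1.07 and 8.61 ± 0.59, with 1 of 3 called higher, and the 6 pluripotency markers to 2573 ± 64 and 3786 ± 32, with 1 of 6 called higher. None of the 6 primitive endoderm markers had 0 counts in any library. Rsf1Δ, set against the same WT libraries, had them at 139.9 ± 5.2 with 5 of 6 called lower. In bulk RNA, fewer cells of a type and less RNA per cell cannot be told apart, and the part of these markers in the result was not tested.

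In Acf1Δ, Rtl1 alone was past both thresholds, higher, against 1.14% of all genes called higher. The libraries of 5 genes lay above WT and those of Dio3 below, where 30% and 33.3% of all genes did. The median log2 fold change was 0.64 and that of all genes -0.03. The summed primitive endoderm markers were at 279 ± 26 normalized CPM against 238 ± 4.6 in WT, with 0 of 6 called, and the primed epiblast markers at 26.3 ± 0.32 against 35.9 ± 0.89, with 1 of 3 called lower. The fibroblast markers were at 12.9 ± 0.10 against 24.4 ± 0.097, with 3 of 4 tested called lower. Mesoderm markers were at 5.42 ± 0.86 against 6.69 ± 0.023 and pluripotency markers at 3836 ± 105 against 3286 ± 147, with no call in either list. Summed RNAs that lack a poly(A) tail were at 4.61 ± 1.92 against 0.296 ± 0.053 in WT, and of the 4 tested, Rpph1 (log2 fold change 4.13 ± 0.32, adjusted p = 1.77e-10) and Rmrp (4.27 ± 0.71, adjusted p = 2.53e-05) were called higher. The part of these RNAs and markers in the domain's values was not tested.

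In BptfΔ, Dlk1 alone was past both thresholds, lower, against 8.59% of all genes called lower. The libraries of 3 genes lay below WT and those of 1 above, where 38.7% and 41.2% of all genes did. The median log2 fold change was -0.06. Rtl1, Meg3 and Rian stayed within 0.11 of WT on the log2 scale. Markers of other states moved in the same libraries. Summed primitive endoderm markers were at 13.7 ± 0.22 normalized CPM against 144 ± 5.8 in WT (6 of 6 called lower), primed epiblast markers at 6.64 ± 0.00035 against 37.5 ± 1.0 (3 of 3) and fibroblast markers at 2.83 ± 0.40 against 8.24 ± 0.52 (3 of 4 tested). Mesoderm markers were at 4.08 ± 0.44 against 4.45 ± 0.14 (1 of 3 called lower), and pluripotency markers at 3898 ± 0.65 against 2644 ± 47 (2 of 6 called higher). The part of these markers in the Dlk1 value was not tested.

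In Rsf1Δ, Tip5Δ and the libraries labelled Cecr2Δ there was no domain gene past both thresholds, where 5.91%, 2.72% and 3.11% of all genes were. Dlk1 in Rsf1Δ came nearest to the fold threshold and passed it, at 1.03, without the first WT library of batch A. The line's libraries did not overlap WT for 2 genes in Rsf1Δ, 3 in Tip5Δ and 2 with the Cecr2Δ label, where 67.1%, 63.3% and 38.3% of all genes did not overlap. Median log2 fold changes of the 6 were 0.14, 0.29 and 0.03. Summed primitive endoderm markers were at 75.3 ± 4.8 normalized CPM in Tip5Δ against 336 ± 13 in WT (6 of 6 called lower) and at 31.03 ± 2.2 in the libraries labelled Cecr2Δ against 103 ± 9.2 (5 of 6 called lower). Fibroblast markers were at 19.9 ± 3.2 against 31.9 ± 0.33 in Tip5Δ (3 of 4 tested called lower), at 9.66 ± 0.67 against 18.8 ± 0.46 in Rsf1Δ (3 of 4) and at 15.8 ± 0.015 against 17.1 ± 1.0 with the Cecr2Δ label (no call). Primed epiblast markers were at 41.2 ± 2.5 against 59.7 ± 3.2 in Rsf1Δ (1 of 3 called lower), 45.1 ± 2.3 against 42.4 ± 0.11 in Tip5Δ (no call) and 52.3 ± 0.29 against 30.96 ± 1.0 with the Cecr2Δ label (1 of 3 called higher). No mesoderm or pluripotency marker was called in these 3 lines, and the part of the markers in the domain's values was not tested. Just inside the fold threshold among all calls was Meg3 in WstfΔ at -1.11, and just outside it Dlk1 in Rsf1Δ at 0.90.

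The proportions between the noncoding RNAs stood apart in batch C. Meg3 had 45.7% to 60.7% as many reads as Rian in the WT group means of batches A, B, D and E and 21.7% ± 0.17 (SD, n = 2) in WT of batch C, where BptfΔ had 19.7% ± 0.75. Mirg went the other way, with 5.97% to 9.89% of the Rian reads in the other WT groups and 16.6% ± 0.31 in WT of batch C. Within batch A, where all 3 RNAs were lower in WstfΔ, Meg3 was at 44.1% ± 2.1 in that line against 53.5% ± 5.6 in WT and Mirg at 6.04% ± 0.51 against 7.45% ± 0.39. In the libraries labelled Cecr2Δ, where Rian alone was higher, Meg3 was at 45.9% ± 4.9 against 60.7% ± 5.1 (n = 3 each).

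Reads over the short miRNA precursors followed the batch too. Summed over the 59 miRNA genes no wider than 124 bases, WT of batch C had 8.81 and 10.03 CPM (151 and 191 counts) and BptfΔ 10.7 and 11.7 (186 and 196 counts). The other 20 libraries had 0.228 to 1.48 CPM, from 4 to 42 counts. Within their batches, WstfΔ lay below WT (0.578 and 0.293 against 1.04 and 0.947). Acf1Δ (0.821 and 1.48 against 0.368 and 0.518) and the Cecr2Δ label (0.818, 0.671 and 0.586 against 0.228, 0.293 and 0.331) lay above it. Rsf1Δ and Tip5Δ overlapped WT. In batch C 41 to 46 of these genes had a count in a library, and elsewhere 3 to 13 did. Of the 61 miRNA genes, 28 had counts only in batch C and 5 had none in any library. These libraries are also the ones with RNAs that lack a poly(A) tail, and batch and library type cannot be told apart. The labels name a stranded TruSeq mRNA kit for every library, and the study's methods name another TruSeq RNA kit, likewise for all batches.

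**Figure D3:**
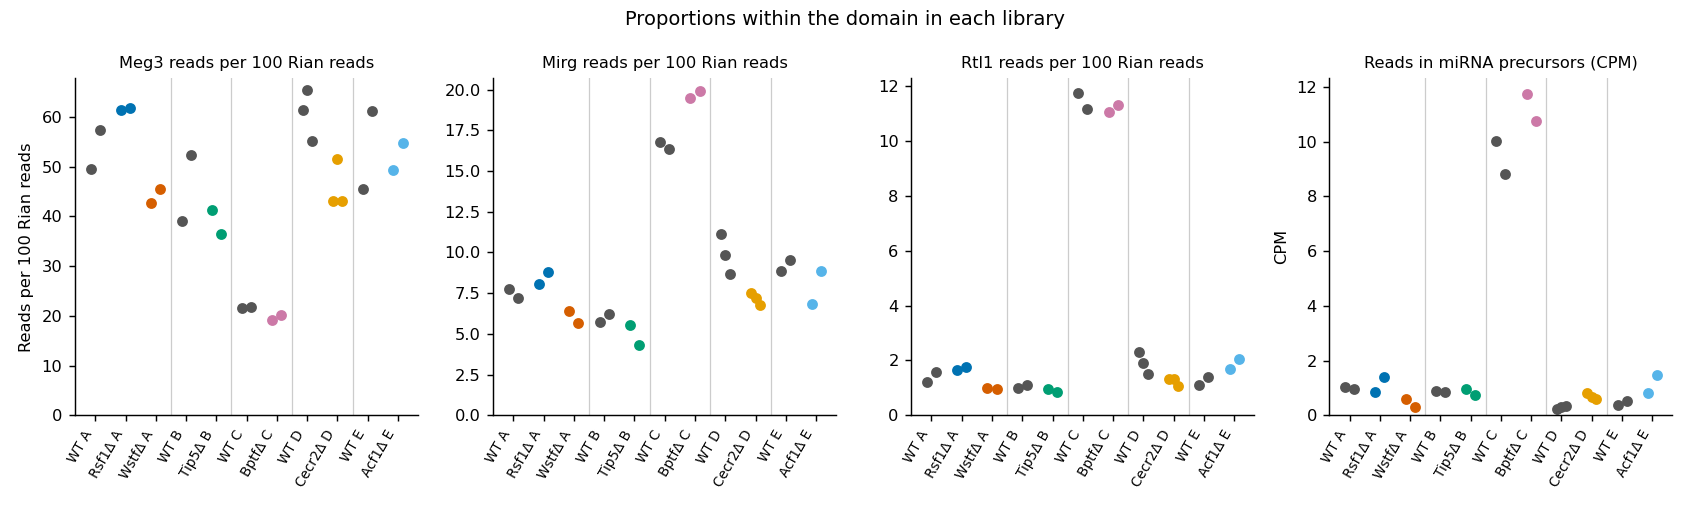
Reads of Meg3, Mirg and Rtl1 per 100 reads of Rian, and summed CPM over short miRNA precursors, in each library by genotype and batch letter. The 4 libraries of batch C stand apart in every panel, with the lowest Meg3 proportion (19.2 to 21.8) and the highest of the other measures.

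Of the 68 further genes inside the domain, 6 had at least 100 counts over all libraries. AF357425 and DQ267101 are snoRNA entries of 5099 and 2624 bases within the Rian span. Mir3072 (1578 bases) lies within the Mirg span and Mir1906-1 (922 bases) within that of Meg3. Each of these widths exceeds the gene's own coordinates, so reads of the host RNA may be counted in it, which was not measured. Mir3072 was the only 1 of the 6 past both thresholds in a line. Its log2 fold change was -1.05 ± 0.19 in WstfΔ beside -1.14 for Mirg, and it is not taken as a separate measurement. DQ267102, a snoRNA entry, had 125 counts over all libraries, 64 of them in batch C, and Mir410 had 214, 39 of them in batch C. Dio3os, the transcript opposite Dio3, had 96 counts over the 24 libraries and was not tested.

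The likeness of Rtl1, Mirg and Rian to Meg3 across groups turned on batch C. Over the 11 group means of log2 normalized CPM (prior count 0.5), the genes outside the domain most like Meg3 among 14510 were Pramel1 (Pearson r 0.93), Gmpr2 (0.92), Zfp467 (0.91), Dcp1b (0.90) and Abitram (0.90). Of the members, Dlk1 was at rank 46 (r 0.85), while Dio3 had r 0.34, Rian 0.23, Mirg -0.34 and Rtl1 -0.47. With the 9 group means outside batch C, an alternative chosen after seeing the data, Rtl1 took rank 2 (r 0.95), Mirg rank 9 (0.93), Rian rank 121 (0.83), Dlk1 rank 264 (0.78) and Dio3 rank 2556 (0.44). None of the 5 genes named above stayed in the first 5 there, and Zfp105 was first (0.96). Genes most like Dlk1 over the 11 means were Arxes2 (0.98), Ccdc114 (0.97), Dguok (0.95), Mrpl50 (0.95) and Nrbf2 (0.94), and outside batch C Ccdc114 and Mrpl50 were still among the first 5. These points share WT groups, batches and normalization, and Meg3 and Rtl1 overlap in the annotation, so the values describe these groups only.

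Genes next to the domain were tested in the same fit. Within 1 Mb of either end, 24 other genes were tested, 9 on the Dlk1 side and 15 on the Dio3 side. Of their 144 comparisons 6 were past both thresholds (1 higher and 5 lower), all of them on the Dio3 side and none in WstfΔ. Over all genes and the 6 lines, 6.75% of comparisons were past both thresholds. They belong to 2 genes. Mok, a protein kinase gene 527 kb from Dio3, was lower in Acf1Δ (11.9 against 29.7 normalized CPM, log2 fold change -1.32 ± 0.11, adjusted p = 3.9e-10) and higher in BptfΔ (39.1 against 16.1, 1.28 ± 0.11, adjusted p = 1.88e-10). Amn, an endocytic receptor subunit gene 990 kb away and known in visceral endoderm, fell in BptfΔ (-3.58 ± 0.43, adjusted p = 7.42e-08), Tip5Δ (-2.61 ± 0.27, adjusted p = 4.58e-08), Rsf1Δ (-1.31 ± 0.27, adjusted p = 0.000482) and the libraries labelled Cecr2Δ (-1.06 ± 0.25, adjusted p = 0.00197). These 4 lines had 5 or 6 of the 6 primitive endoderm markers called lower. In WstfΔ, with 4 of the 6 called lower, Amn was at 8.04 against 5.24 normalized CPM (0.62 ± 0.24, adjusted p = 0.0376), past neither threshold. The part of the endoderm markers in these values was not tested.

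The nearest tested neighbors were not past both thresholds in any line. Begain, 384 kb before Dlk1, had log2 fold changes of -0.23 to 0.96 on levels of a few CPM, with adjusted p values of 0.0724 or more. Ppp2r5c, a phosphatase subunit gene 166 kb beyond Dio3, was higher in WstfΔ by 0.66 ± 0.06 (291 against 184 normalized CPM, adjusted p = 3.07e-09), opposite in sign to the 6 domain genes there.

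**Figure D4:**
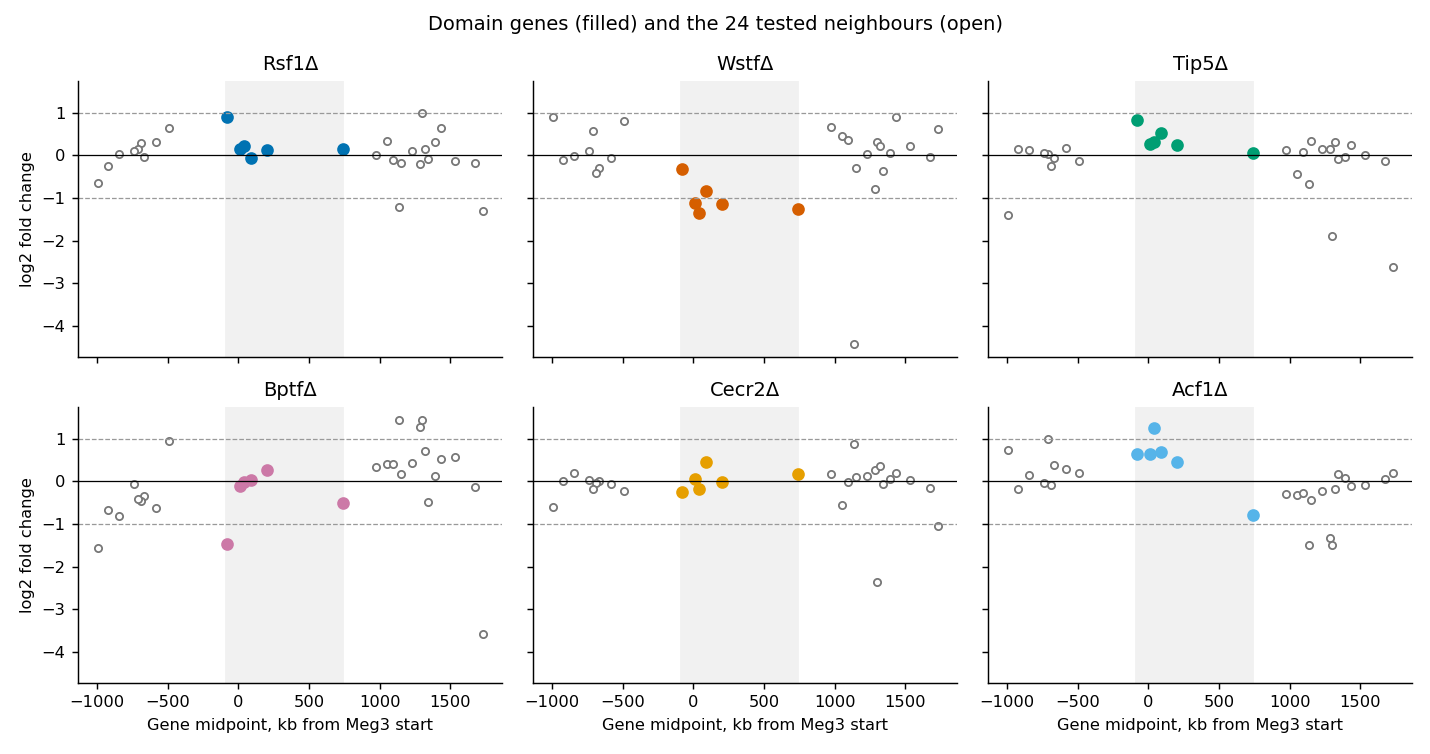
Log2 fold change of the 6 domain genes (filled) and the 24 tested neighbors (open) against the distance of each gene's midpoint from the Meg3 start in kb, 1 panel per line, with the domain shaded. In WstfΔ the filled points lie between -0.33 and -1.35 and no neighbor was called, the open point near -4.4 being a gene of few counts that did not pass the test.

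Factors that set or keep imprints were measured to see whether their RNA moved in the same lines. Of 20 genes on the list, all tested, 13 of 120 comparisons were past both thresholds, 1 higher and 12 lower. Over all genes the share was 6.75%. WstfΔ had 4 of these calls and BptfΔ 5, all lower, and over all genes these 2 lines also had the most calls (10.4% and 13.8% in either direction). In WstfΔ, Dppa3, an oocyte and germ-line factor that protects methylation, was at 0.435 ± 0.30 against 3.89 ± 0.14 normalized CPM (log2 fold change -3.14 ± 0.37, adjusted p = 1.1e-07). Dnmt3l, the cofactor of the de novo DNA methyltransferases, was at 50.2 ± 2.3 against 340 ± 2.7 (-2.76 ± 0.06, adjusted p = 3.51e-22). Aff3, which binds the intergenic control region of this domain, was at 4.25 ± 0.013 against 15.8 ± 1.8 (-1.89 ± 0.16, adjusted p = 3.01e-10). The de novo methyltransferase gene Dnmt3b was at 157 ± 0.38 against 397 ± 0.59 (-1.34 ± 0.06, adjusted p = 7.05e-16).

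In BptfΔ, Dppa3 fell by 4.02 ± 0.39 on the log2 scale (adjusted p = 2.1e-09), Dnmt3l by 2.41 ± 0.06 (adjusted p = 2.18e-21), and Dnmt3a, a de novo methyltransferase, by 2.63 ± 0.07 (adjusted p = 2.32e-21). Aff3 (-2.33 ± 0.19, adjusted p = 4.16e-11) and Dnmt3b (-1.83 ± 0.06, adjusted p = 8.36e-19) fell there as well. Aff3 in BptfΔ and Dnmt3b in both lines are named beyond the 3 genes per line, after their values were seen. In Acf1Δ Dnmt3a was higher by 1.152 ± 0.059 (adjusted p = 5.57e-14) and Dppa3 fell by 2.15 ± 0.25 (adjusted p = 1.24e-07). Dppa3 also fell in Tip5Δ (-1.13 ± 0.22, adjusted p = 0.000443), and Dnmt3l fell in the libraries labelled Cecr2Δ (-1.21 ± 0.05, adjusted p = 3.09e-17). Rsf1Δ had no call among the 20. Zfp57, whose product holds imprints through the hexamer printed above, was at 449 ± 12 in WstfΔ against 445 ± 9.0 in WT (0.01 ± 0.08, adjusted p = 0.894) and was not called in any line (it is named here for that hexamer). Median log2 fold changes of the list were -0.11 to 0.14. The part of these factors in the domain's values was not tested.

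Imprinted genes outside the domain were called in every line, mostly lower, while 2.72% (Tip5Δ) to 13.8% (BptfΔ) of all genes were called in a line, 4.45% in Acf1Δ. Of 28 listed, 26 were tested, and 33 of 156 comparisons were past both thresholds, 4 higher and 29 lower. The counts were 5 lower in Rsf1Δ, 9 lower in WstfΔ, 1 higher in Tip5Δ, 1 higher and 9 lower in BptfΔ, 2 lower in the libraries labelled Cecr2Δ, and 2 higher and 4 lower in Acf1Δ. H19, the maternally expressed RNA of the Igf2 locus, was at 9.05 ± 0.38 normalized CPM in WstfΔ against 190 ± 1.1 in WT (log2 fold change -4.39 ± 0.10, adjusted p = 1.94e-22). It was at 0.0588 against 101 in BptfΔ (adjusted p = 5.93e-24), and at 0.34 against 106 in Acf1Δ (adjusted p = 1.29e-24). The BptfΔ level is under that of 3 counts in its libraries (0.180 and 0.173 CPM). Nnat fell in WstfΔ (-4.17 ± 0.33, adjusted p = 6.34e-11), and Igf2 fell there by 2.74 ± 0.12 and in Rsf1Δ by 2.56 ± 0.11. Grb10 was the 1 imprinted gene called higher in Tip5Δ (1389.7 ± 2.7 against 662 ± 12, 1.07 ± 0.06, adjusted p = 2.51e-13).

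Genes related to Dlk1 and Rtl1 by family are set beside the share of 6.75% of all comparisons called. Among 9 tested Notch receptors and ligands, the family to which Dlk1 is related, 3 of 54 comparisons were past both thresholds. Notch4 rose in WstfΔ (25.01 ± 0.94 against 5.37 ± 0.41 normalized CPM, adjusted p = 9.14e-14), and Dll1 (0.615 ± 0.19 against 3.54 ± 0.63, adjusted p = 3.75e-07) and Jag2 fell in BptfΔ. Among 5 tested gag-derived genes related to Rtl1, 4 of 30 comparisons were called, all lower, from 2 genes, of which Peg10 gave 3 (WstfΔ, BptfΔ and the libraries labelled Cecr2Δ) and Rtl8a 1 (Acf1Δ).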

How the data were processed

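RNA-seq libraries of mESCs were aligned by the authors to mm10 with QuasR and HISAT2, per their methods, after base calling with bcl2fastq 2.17, per the submitters' processing notes. The authors deposited raw counts per gene, by Entrez ID and with exonic width, for 24 libraries. Strand and multimapping settings of the counting are not given in the sources used here. IDs were joined to RefSeq symbols (24570 of 24594 matched, GRCm38.p6).

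Counts were analysed in edgeR 4.0.16 (R 4.3.3) with TMM normalization, filterByExpr by genotype (15682 genes kept) and the legacy quasi-likelihood test under ~batch + genotype over all 24 libraries, with Benjamini-Hochberg adjustment over all genes tested. Calls needed an absolute log2 fold change above 1 and an adjusted p under 0.01, the study's own thresholds. SEs were taken as the absolute log2 fold change over √F. Per-library levels are normalized CPM, and library totals set their precision, 3 counts being 0.0837 to 0.220 CPM. Replicate libraries differed by more than sampling noise in all 15 pairs. The fit was tested on simulated data. Promoter and miRNA sequences came from RefSeq tables.

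Alternatives were DESeq2 1.42.0, the newer edgeR fit, other scalings, no filter, other sample sets and a replicate block. The 6 domain genes, the gene lists and the tests were chosen with earlier results of these data known. A further gene list is not reported here. Named were all 6 members, other domain genes with at least 100 counts, called neighbors and the nearest on each side, and from the lists of imprint factors and imprinted genes at most 3 called genes per line. For likeness the 5 genes with the highest r among those with a mean of at least 10 counts were named.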

Additional observations from a re-analysis of the deposited data

How the results depend on the processing

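With the batch term left out, each line was set against all 11 WT libraries, including the 2 of batch C with a high Rtl1 level. The count of domain genes past both thresholds then became 1 in WstfΔ, 2 in BptfΔ and 0 in Acf1Δ, with Dio3 still called in WstfΔ and Rtl1 (-2.51) and Mirg (-1.33) lower there by more than with the batch term but not past the test, and the Acf1Δ value of Rtl1 reversed from 1.25 to -0.59. Over all tested genes, the calls without the batch term were 500 in WstfΔ, 2368 in BptfΔ and 153 in Acf1Δ. Without the fold-change minimum the counts of domain genes were 1 in Rsf1Δ, 2 in Tip5Δ, 1 in those labelled Cecr2Δ and 5 in Acf1Δ. They were 29 for the neighbors, 44 for the imprint factors and 85 for imprinted genes elsewhere. The share of all genes past this looser rule was not computed, so these counts have no background beside them. Leaving out 1 library at a time gave 0 to 1 domain genes in Rsf1Δ, 2 to 4 in WstfΔ, 5 to 8 calls among neighbors, 12 to 14 among imprint factors and 31 to 33 among imprinted genes elsewhere, and 0, 1, 0 and 1 domain genes in Tip5Δ, BptfΔ, those labelled Cecr2Δ and Acf1Δ. The Rsf1Δ call appeared without the first WT library of batch A, and the WstfΔ count was 2 without the second. The other settings (newer quasi-likelihood fit, DESeq2, library size only, DESeq2 size factors, no filter, own-batch WT only) left each count within 1.5 times. Without batch C, an alternative chosen after seeing the data, the calls in the other 5 lines were 4 against 4 for neighbors, 8 against 8 for imprint factors and 24 against 23 for imprinted genes elsewhere. Over these settings except the one without batch, 20 of 438 log2 fold changes of domain genes moved by more than the replicate SD and 0 changed the sign of a called value. Levels without division by width were 6.87 (Dlk1), 9.49 (Rtl1), 116 (Meg3), 250.2 (Rian), 25.3 (Mirg) and 2.56 (Dio3) normalized CPM over the 11 WT libraries.

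Same-numbered libraries of a line and its WT did not deviate together (correlations of -0.0461 to 0.0412 over 13 pairs), so no pairing by number was seen. Where a line had 2 libraries both its pairs gave the same value, so there were fewer than 13 separate values. With a replicate block the count stayed at 4 in WstfΔ, 1 in BptfΔ and 1 in Acf1Δ. Depth limits Dio3 most, with 11 to 124 counts per library, and single precursors of miRNAs, most of which had none in a library outside batch C.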
